A study of Homo sapiens with 12 samples.

Results

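The genes described here are the secreted and membrane-bound proteases of the matrix metalloproteinase family (MMP), the ADAMTS proteases (a disintegrin and metalloproteinase with thrombospondin motifs) and the tissue inhibitors of metalloproteinases (TIMP). They were taken by symbol from the count table as the protein-coding genes named MMP, ADAMTS or TIMP followed by a number and at most 1 letter. This gave 46 of the 58216 genes in the table, made up of 23 MMP, 19 ADAMTS and 4 TIMP genes. MMP24OS, a gene on the strand opposite MMP24 that encodes no metalloproteinase, was left out by this reading of the names.

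MMPs and ADAMTS proteases hold a zinc ion in the active site and are made as precursors with a propeptide. For many of them, but not all, removal of the propeptide switches the protease on. MMPs cut collagens, laminins and other matrix proteins, and ADAMTS proteases cut proteoglycans such as versican, procollagens, fibrillin-associated proteins and von Willebrand factor. TIMPs bind the active site and block it, and in bile duct cancers the balance of these proteases and inhibitors is studied as part of invasion through the fibrous tissue around the tumour.

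RNA sequencing covered 4 groups of 3 libraries each: RBE cells with 5 µM anlotinib for 24 h, RBE control cells, HCCC9810 cells with 5 µM anlotinib for 24 h, and HCCC9810 control cells. Both are established human cell lines from intrahepatic cholangiocarcinoma, which arises in bile ducts inside the liver, and each group is a model of 1 line grown without stroma. Anlotinib, taken by mouth, blocks receptor tyrosine kinases including those for VEGF, PDGF and FGF. The treatment text, which is identical for all samples, gives a final 0.1% of dimethyl sulfoxide as the drug's solvent and does not say whether control cultures received it.

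The column headers and the sample titles were at odds. Headers numbered the RBE libraries control 1 to 3 and treated 4 to 6, and the HCCC9810 libraries control 7 to 9 and treated 10 to 12, whereas in the titles these numbers belonged to the opposite treatment of the same line. Groups were taken from the words in the headers. If the numbers in the titles were right, every anlotinib effect given here would have the opposite sign, and the comparison labelled untreated would be between treated cells.

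Library totals were 18227987 to 40963529 counts in RBE anlotinib, 17779598 to 31956474 in RBE control, 15215193 to 17722970 in HCCC9810 anlotinib and 16240478 to 22567927 in HCCC9810 control. A single axis took up 54.3% of the within-group variance of 11781 genes and ran along GC content (rho 0.741 between a gene's loading and its GC content). HCCC9810 control library 7 (24.2) and RBE anlotinib library 6 (26.3) lay furthest out, both at the same end. At the other end lay HCCC9810 anlotinib library 11 (-16.8) and RBE control library 2 (-14.2). The 6 biliary epithelial markers used (KRT7, KRT19, KRT8, KRT18, EPCAM and SOX9) all had counts in each group, with a summed level of 6161 to 7926 CPM (counts scaled to library size) in RBE anlotinib, 5656 to 6379 in RBE control, 7058 to 7864 in HCCC9810 anlotinib and 11525 to 16317 in HCCC9810 control. The 3 leukocyte markers (PTPRC, CD68 and CD3E) summed to at most 1.46 CPM in any library. The 4 hepatocyte markers (ALB, APOA1, TTR and SERPINA1) summed to 89.8 to 114 CPM in RBE anlotinib, 125 to 169 in RBE control, 121 to 139 in HCCC9810 anlotinib and 88.9 to 94.0 in HCCC9810 control, and their part in the results was not tested. SERPINA1 alone of these 4 passed the test described below, higher with anlotinib in HCCC9810 (log2 fold change 0.55 ± 0.12, edgeR adjusted p = 0.00405) and lower in RBE (-0.49 ± 0.12, edgeR adjusted p = 0.00958).

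Promoter sequence was taken from RefSeq (GRCh38.p14) as the window from 250 bases before to 50 bases after each gene's start, which was present for 27 of the 46 members in 28 windows, 17 of the 27 being tested members. Sequence before the RefSeq start is printed 5′ to 3′ on the gene's strand for 4 members, each called in an anlotinib effect in at least 1 line: MMP7 (chr11:102530754-102530897, minus strand), ADAMTS14 (chr10:70672356-70672505, plus strand), ADAMTS7 (chr15:78811465-78811614, minus strand) and MMP24 (chr20:35226540-35226653, plus strand). RefSeq and GENCODE, from which the gene coordinates below come, place some starts differently, and bases that lie in a GENCODE exon were left out. Each stretch therefore runs from 150 bases before the RefSeq start to the start itself, or to the first GENCODE exon, 6 bases earlier for MMP7 and 36 for MMP24. Capitals mark the letters TGANTCA, bound by AP-1 (Fos and Jun dimers), TATAAA on the sense strand, bound by the TATA-binding protein, and GGGCGG on either strand (CCGCCC on the printed one when on the other), bound by Sp1 and related factors. TGANTCA reads the same on both strands, and some neighbouring GGGCGG matches in ADAMTS7 and CCGCCC matches in ADAMTS14 share a base.

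MMP7: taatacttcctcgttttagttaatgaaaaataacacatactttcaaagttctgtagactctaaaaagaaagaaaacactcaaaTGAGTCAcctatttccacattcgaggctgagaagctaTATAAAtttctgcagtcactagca
ADAMTS14: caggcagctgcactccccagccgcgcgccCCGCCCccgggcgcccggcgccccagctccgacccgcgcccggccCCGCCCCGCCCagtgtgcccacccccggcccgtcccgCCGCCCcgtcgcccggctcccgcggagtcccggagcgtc
ADAMTS7: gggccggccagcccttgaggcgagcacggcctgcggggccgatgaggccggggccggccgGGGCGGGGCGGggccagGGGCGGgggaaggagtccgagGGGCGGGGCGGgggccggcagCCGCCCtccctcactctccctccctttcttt
MMP24: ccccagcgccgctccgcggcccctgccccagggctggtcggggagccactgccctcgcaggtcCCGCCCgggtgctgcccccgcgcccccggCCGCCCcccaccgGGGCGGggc

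The MMP7 stretch held TGAGTCA at position -67 and TATAAA at -30, counted from the RefSeq start. The ADAMTS14, ADAMTS7 and MMP24 stretches held GC-rich Sp1-type letters and no TGANTCA. The ADAMTS12 window held TGAATCA at -84, in bases that GENCODE counts as its first exon. The AP-1 letters were present in 4 of the 28 member windows (14.3%), those of MMP7, MMP10, MMP20 and ADAMTS12, against 7.71% of all 35116 windows of this length. TATAAA was in 21.4% of member windows and 7.33% of all windows, and GGGCGG was in 67.9% and 45%. These are matches of letters, and binding was not measured.

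Of the 46 members, 29 had enough counts to be tested (12 of 23 MMP, 13 of 19 ADAMTS and 4 of 4 TIMP genes). The other 17 had 1 to 64 counts over the 12 libraries together (median 8) and at most 17 in any library. Among them were MMP2 and MMP9, the gelatinases that cut type IV collagen, MMP3 and MMP10, the stromelysins, MMP8 and MMP13, 2 of the collagenases, and ADAMTS4 and ADAMTS5, the aggrecanases. MMP2, the most counted of them, had 3, 0 and 0 counts in HCCC9810 anlotinib and 9, 8 and 13 in HCCC9810 control, too few for the test. Of the 29 tested members, 25 would pass the count filter in RBE alone and 20 in HCCC9810 alone. The 8 that pass only through RBE were MMP11, MMP16, MMP17, MMP19, ADAMTS3, ADAMTS10, ADAMTS16 and ADAMTS17, and the 3 that pass only through HCCC9810 were MMP1, ADAMTS12 and ADAMTS14.

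Within 1 locus, 9 MMP genes lie side by side on chromosome 11 (GRCh38 102520508 to 102955734), the cluster of collagenases, stromelysins, matrilysin and macrophage elastase. MMP7 had 25572 counts over the 12 libraries and MMP1 had 153, and no other gene of the cluster exceeded 33.

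Levels between genes are compared as RPKM (counts divided by gene length and by the library total). TIMP2 was the most abundant member in each of the 4 groups, with a mean of 115 ± 1.65 RPKM in RBE anlotinib, 77.6 ± 7.0 in RBE control, 294 ± 43.8 in HCCC9810 anlotinib and 339 ± 3.49 in HCCC9810 control (SD, n = 3 each, as for all means). TIMP2 both inhibits MMPs and takes part with MMP14 in activating the MMP2 precursor. In RBE control the order below TIMP2 was MMP7 (59.0 ± 6.66 RPKM), MMP14 (35.0 ± 1.89), TIMP1 (32.5 ± 0.950), MMP24 (18.9 ± 3.13), MMP15 (8.16 ± 1.58) and ADAMTS15 (4.84 ± 0.403). MMP14 and TIMP1 there differed by less than the sum of their SDs. In HCCC9810 control it was TIMP1 (75.0 ± 7.66), MMP28 (54.1 ± 2.03), MMP14 (40.7 ± 1.31), MMP7 (32.8 ± 3.89), ADAMTS15 (32.3 ± 6.32), MMP15 (20.2 ± 0.939), MMP24 (17.5 ± 4.79) and TIMP4 (17.4 ± 0.705). MMP7 and ADAMTS15 differed by less than their SDs, and MMP24 differed by less than its SD from both MMP15 and TIMP4.

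With anlotinib the RBE order was TIMP2, MMP7 (42.4 ± 1.13 RPKM), MMP14 (40.9 ± 0.261), MMP24 (32.7 ± 0.909), TIMP1 (27.5 ± 3.88) and MMP15 (13.1 ± 0.184). The HCCC9810 order was TIMP2, TIMP1 (89.1 ± 8.52), MMP14 (36.3 ± 2.29), MMP28 (34.5 ± 8.12), MMP7 (19.4 ± 6.46), MMP15 (16.1 ± 1.92), TIMP4 (15.0 ± 1.20) and ADAMTS15 (14.7 ± 0.238). In that HCCC9810 order MMP14 and MMP28, MMP7 and MMP15, MMP15 and TIMP4, and TIMP4 and ADAMTS15 differed by less than the sum of their SDs. A mean of at least 10 RPKM was reached by 6 members in RBE anlotinib, 5 in RBE control, 9 in HCCC9810 anlotinib and 9 in HCCC9810 control, and a mean of at least 1 RPKM by 13, 13, 13 and 12 members in the same order.

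**Figure D1:**
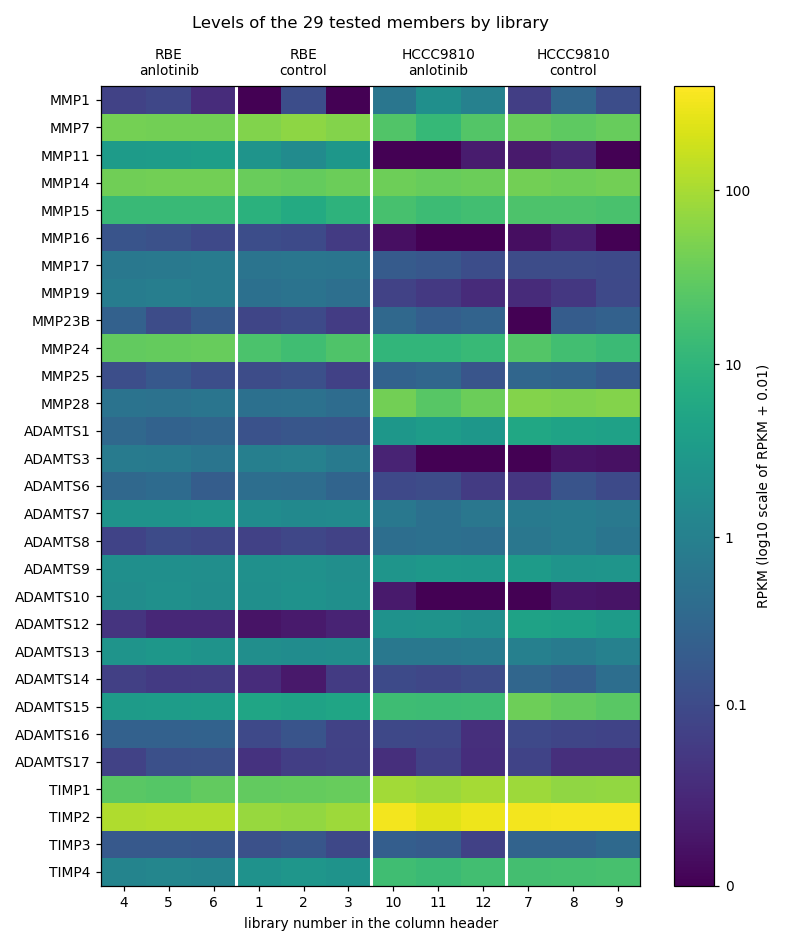
Level of the 29 tested members (rows) in the 12 libraries (columns, by the number in the column header, grouped by line and treatment), as RPKM on a log10 scale of RPKM + 0.01. TIMP2 is the brightest row in every library, MMP28 is bright in the HCCC9810 libraries (means 34.5 and 54.1 RPKM) and 0.568 and 0.471 RPKM in RBE, and MMP11 and ADAMTS10 are dark in HCCC9810.

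The lines differed in which proteases and inhibitors they expressed. In RBE control against HCCC9810 control, 25 of the 29 members passed the test (edgeR's quasi-likelihood test, Benjamini-Hochberg adjusted p below 0.05 over 18035 genes), 10 higher and 15 lower in RBE, and 64.1% of all genes tested passed, 31.5% higher and 32.6% lower. The members' median log2 fold change was -0.56, against -0.01 for all genes. Of the 29, 24 had groups whose CPM ranges did not overlap, as did 69.1% of all genes. The members' share called is to be read against these background shares. MMP11, MMP16, MMP17, MMP19, ADAMTS3 and ADAMTS10 pass the count filter only through RBE, and MMP1, ADAMTS12 and ADAMTS14 only through HCCC9810. For these members the direction of the difference is tied to how they entered the test. The 4 TIMP genes were all lower in RBE.

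MMP28, an MMP of epithelial cells (ENSG00000271447, chromosome 17, 35756249 to 35795707, GRCh38), had 1.36, 1.40 and 1.13 CPM in RBE control and 173, 149 and 159 CPM in HCCC9810 control. The ranges were far apart, and the log2 fold change was -6.96 ± 0.21 (SE, edgeR adjusted p = 9.75e-13). ADAMTS12, which cuts cartilage oligomeric matrix protein (ENSG00000151388, chromosome 5, 33523535 to 33892192), had 0.0717, 0.108 and 0.183 CPM in RBE control and 46.8, 40.8 and 32.6 CPM in HCCC9810 control. The RBE values rest on 10 counts in all, and the log2 fold change was -8.25 ± 0.26 (edgeR adjusted p = 1.37e-12).

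ADAMTS1, a versican-cutting protease (ENSG00000154734, chromosome 21, 26835747 to 26845409), had 0.896, 1.08 and 1.04 CPM in RBE control and 42.3, 32.6 and 30.0 CPM in HCCC9810 control, without overlap (log2 fold change -5.12 ± 0.20, edgeR adjusted p = 8.07e-12). ADAMTS15, of the same proteoglycan-cutting group (ENSG00000166106, chromosome 11, 130448974 to 130476641), had 27.5, 23.8 and 28.3 CPM in RBE control and 241, 180 and 151 CPM in HCCC9810 control (log2 fold change -2.85 ± 0.16, edgeR adjusted p = 4.1e-10). ADAMTS8, another member of that group, was lower by a log2 fold change of -3.34 ± 0.25 (edgeR adjusted p = 1.32e-08). MMP15, a membrane-type MMP (ENSG00000102996, chromosome 16, 58025566 to 58046901), was at 37.0, 27.0 and 40.5 CPM in RBE control and 101, 91.0 and 85.6 CPM in HCCC9810 control, again without overlap (-1.41 ± 0.14, edgeR adjusted p = 5.34e-07). The remaining members lower in RBE were MMP1, MMP14, MMP25, ADAMTS9 and ADAMTS14, at log2 fold changes of -0.32 to -3.36. Of these, MMP1 rests on 4 counts in RBE control and 19 in HCCC9810 control, with overlapping ranges (-2.59 ± 1.11, edgeR adjusted p = 0.0445). MMP25 had 9 to 12 counts a library in RBE control, and 35.24% of its exon length is shared with MMP25-AS1.

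The inhibitors were lower in RBE control by log2 fold changes of -1.31 ± 0.15 for TIMP1, -2.23 ± 0.13 for TIMP2, -1.46 ± 0.33 for TIMP3 and -2.99 ± 0.13 for TIMP4 (edgeR adjusted p = 1.42e-06, 1.04e-09, 0.00125 and 2.71e-11). TIMP2 (ENSG00000035862, chromosome 17, 78852977 to 78925387) had 419, 382 and 466 CPM in RBE control and 2066, 1916 and 1949 CPM in HCCC9810 control. TIMP4 (ENSG00000157150, chromosome 3, 12153051 to 12159351) had 3.51, 4.04 and 3.73 CPM in RBE control and 30.0, 29.4 and 29.9 CPM in HCCC9810 control. Neither pair of ranges overlapped. Of the exon length of TIMP4, 10.3% is shared with SYN2 and of TIMP2 10.03% with CEP295NL and AC022966.1, and the labels do not say if reads were counted by strand.

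Higher in RBE control were ADAMTS10, which acts on fibrillin microfibrils, MMP11, a stromelysin activated by furin inside the cell, and ADAMTS3, a procollagen N-propeptidase that also processes VEGFC. ADAMTS10 had 873 counts in RBE control and 2 in HCCC9810 control, a ratio of normalised counts of 309 (95% exact interval 85.4 to 2558, counting error only). MMP11 had 928 counts against 3 (ratio 219, interval 74.8 to 1065), and ADAMTS3 had 491 against 2 (ratio 174, interval 47.9 to 1440). Each passed the test, with edgeR adjusted p of 2.69e-11, 5.71e-10 and 1.76e-09. These genes pass the count filter only through RBE, so their being higher there is tied to how they entered the test.

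Smaller differences were those of MMP16 (log2 fold change 3.73 ± 0.63), MMP19 (3.00 ± 0.31), MMP17 (2.43 ± 0.25), ADAMTS6 (1.89 ± 0.33) and ADAMTS7 (0.96 ± 0.15), with edgeR adjusted p between 5.47e-07 and 0.000119. MMP16 and MMP17 are membrane-type MMPs, MMP17 being held by a lipid anchor. MMP19 shares 17.42% of its exon length with TMEM198B, so its reads may include that gene's. The other members higher in RBE were MMP7 and ADAMTS13, and MMP24 did not pass (log2 fold change -0.00 ± 0.19). The fibroblast markers (DCN, LUM, PDGFRB and COL1A1) also differed, summing to 14.2 to 15.5 CPM in RBE control and 50.2 to 63.4 CPM in HCCC9810 control. So did the endothelial markers (PECAM1, CDH5 and VWF), which summed to 3.91 to 5.23 CPM in RBE control and 29.3 to 35.1 CPM in HCCC9810 control, and the part of either list in these results was not tested. Each group is 1 cell line grown without stroma, so these sums are marker RNA levels and not numbers of fibroblasts or endothelial cells.

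**Figure D2:**
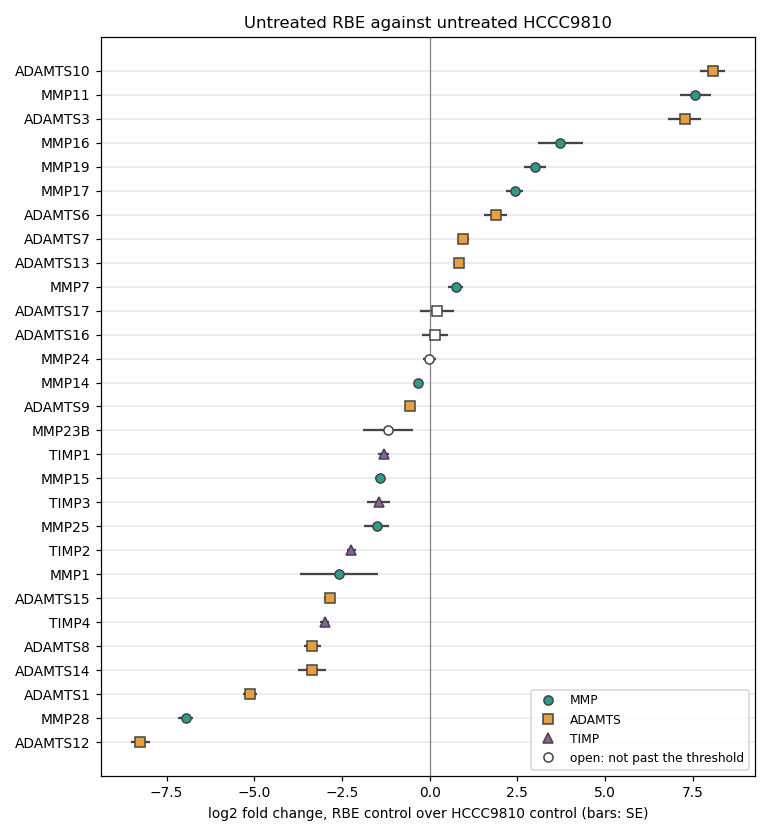
Log2 fold change of the 29 tested members, RBE control over HCCC9810 control (points, bars are SE; circles MMP, squares ADAMTS, triangles TIMP; open symbols did not pass the test). The members run from ADAMTS12 at -8.25 to ADAMTS10 at 8.08, with all 4 triangles left of 0.

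In RBE cells anlotinib was accompanied by higher levels of 3 MMP and 3 ADAMTS genes and TIMP2, and lower levels of TIMP4 and ADAMTS15. These 9 of 29 members called (7 up, 2 down) stand beside 17.7% of all genes, 9.37% up and 8.32% down, and the members' median log2 fold change was 0.47 against 0.02 for all genes. By family, 3 of 12 MMP genes rose, 3 of 13 ADAMTS genes rose and 1 fell, and 1 of 4 TIMP genes rose and 1 fell. The CPM ranges of treated and control cells did not overlap for 18 of the 29 members, against 35% of all genes. The question set by the design is which transcripts change under the drug within each line.

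Among membrane-type MMPs, MMP15 had 51.6, 52.6 and 57.5 CPM in RBE anlotinib and 37.0, 27.0 and 40.5 CPM in RBE control. All treated libraries lay above the control ones, and MMP15 rose by a log2 fold change of 0.63 ± 0.14 (edgeR adjusted p = 0.00681). MMP24 (ENSG00000125966, chromosome 20, 35226654 to 35277000), best known from nervous tissue, had 127, 129 and 147 CPM in RBE anlotinib and 83.1, 65.3 and 92.8 CPM in RBE control. These ranges did not overlap either (0.74 ± 0.19, edgeR adjusted p = 0.0156). Of the exon length of MMP24, 21.77% is shared with MMP24OS and AL121753.2. MMP24OS had a log2 fold change of 0.41 ± 0.15 (edgeR adjusted p = 0.068), short of the threshold.

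MMP14, the main membrane collagenase, had 164, 165 and 181 CPM in RBE anlotinib and 150, 142 and 161 CPM in RBE control, and did not pass (0.17 ± 0.10, edgeR adjusted p = 0.271). MMP19 had 3.64, 3.79 and 3.80 CPM in RBE anlotinib and 2.22, 2.53 and 2.17 CPM in RBE control, without overlap (0.70 ± 0.21, edgeR adjusted p = 0.0283). MMP7 (ENSG00000137673, chromosome 11, 102520508 to 102530753), matrilysin of glandular epithelium and the gene whose AP-1 letters are printed above, had 91.8, 86.5 and 96.6 CPM in RBE anlotinib and 120, 148 and 129 CPM in RBE control. Its ranges were separate, but the value did not pass the threshold (-0.53 ± 0.21, edgeR adjusted p = 0.105). MMP11 likewise missed it, at 0.61 ± 0.20 (edgeR adjusted p = 0.053).

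ADAMTS1 was low in RBE and rose with anlotinib, to 2.19, 1.73 and 2.17 CPM in RBE anlotinib against 0.896, 1.08 and 1.04 CPM in RBE control (1.0 ± 0.21, edgeR adjusted p = 0.0044). ADAMTS16, a protease with few known substrates, had 1.39, 1.33 and 1.57 CPM in RBE anlotinib and 0.538, 0.809 and 0.397 CPM in RBE control (1.34 ± 0.30, edgeR adjusted p = 0.00589). ADAMTS7, a relative of ADAMTS12 that also cuts cartilage oligomeric matrix protein, had 15.8, 16.2 and 18.9 CPM in RBE anlotinib and 12.5, 11.3 and 11.9 CPM in RBE control (0.51 ± 0.14, edgeR adjusted p = 0.0233). In each of these 3 genes every treated library was above every control library. ADAMTS15 went the other way, with 17.4, 17.5 and 20.6 CPM in RBE anlotinib and 27.5, 23.8 and 28.3 CPM in RBE control (-0.53 ± 0.15, edgeR adjusted p = 0.0243), again without overlap. ADAMTS7 has pseudogene copies, and the labels do not say how reads that fit several genes were counted.

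TIMP2 had 578, 588 and 648 CPM in RBE anlotinib and 419, 382 and 466 CPM in RBE control. The ranges were separate and TIMP2 rose by 0.52 ± 0.13 on the log2 scale (edgeR adjusted p = 0.0106). TIMP4 had 1.79, 1.93 and 1.90 CPM in RBE anlotinib and 3.51, 4.04 and 3.73 CPM in RBE control, and fell by 1.0 ± 0.14 on the log2 scale (edgeR adjusted p = 0.000209), with no overlap. TIMP1, the soluble inhibitor also known as a growth factor for blood cell precursors, had 36.6, 33.7 and 48.5 CPM in RBE anlotinib and 46.6, 48.3 and 50.3 CPM in RBE control. Library 6 of the treated cells lay among the controls, and TIMP1 did not pass (-0.29 ± 0.15, edgeR adjusted p = 0.189), whereas without library 6 it did (-0.46, edgeR adjusted p = 0.0303). TIMP3, which binds the matrix and also blocks ADAM and ADAMTS proteases, had 0.771, 0.766 and 0.759 CPM in RBE anlotinib and 0.573, 0.701 and 0.397 CPM in RBE control and did not pass (0.50 ± 0.34, edgeR adjusted p = 0.35).

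The calls of TIMP4, MMP15 and ADAMTS16 held under all 22 alternative settings, and that of ADAMTS1 under all but the log2(RPKM + 1) scale (0.19, limma adjusted p = 0.299), which shrinks low values. ADAMTS16 rests on 15, 15 and 13 counts in RBE control. Across the settings its log2 fold change ranged from 0.20 to 1.59, and its highest adjusted p lay just below the threshold. The count of 9 became 4 without RBE control library 1 and 5 on the log2(RPKM + 0.1) scale. Leaving out 1 library ended the call of ADAMTS7 (each of RBE anlotinib 5 and 6 and RBE control 1, 2 and 3), MMP19 and ADAMTS15 (RBE anlotinib 4 and 5 and RBE control 1 and 3), MMP24 (RBE anlotinib 6 and RBE control 1 and 2) and TIMP2 (RBE control 1 and 2), with adjusted p of 0.0539 to 0.123. On log2(RPKM + 0.1) the calls of ADAMTS7, ADAMTS15, MMP19 and MMP24 were lost (limma adjusted p = 0.0529, 0.121, 0.122 and 0.0615). ADAMTS15 further lost its call on log2(RPKM + 1) (limma adjusted p = 0.0607), and ADAMTS7 without libraries 6 and 7 (edgeR adjusted p = 0.0536).

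In HCCC9810 cells anlotinib was accompanied by lower levels of 4 ADAMTS and 3 MMP genes and by a higher level of MMP1. These 8 of 29 members called (1 up, 7 down) stand beside 23.9% of all genes, 11.1% up and 12.8% down, and the members' median log2 fold change was -0.24, against -0.05 for all genes. By family, 1 of 12 MMP genes rose and 3 fell, 4 of 13 ADAMTS genes fell, and 0 of the 4 TIMP genes passed in edgeR's test or in DESeq2, with 1 higher and 1 lower at an unadjusted p below 0.05 in edgeR. Treated and control ranges did not overlap for 10 of the 29 members, against 38.3% of all genes. Of the 6 biliary markers, whose sum is given above, the keratins KRT7 (-1.03 ± 0.19), KRT19 (-0.89 ± 0.14), KRT8 (-0.66 ± 0.14) and KRT18 (-0.71 ± 0.13) fell with edgeR adjusted p of 0.000594 to 0.00399. EPCAM (-0.05 ± 0.12, edgeR adjusted p = 0.798) and SOX9 (-0.10 ± 0.11, edgeR adjusted p = 0.525) did not pass. The fibroblast markers summed to 22.1 to 33.6 CPM in HCCC9810 anlotinib and 50.2 to 63.4 CPM in HCCC9810 control. With anlotinib LUM (-1.05 ± 0.20) and COL1A1 (-0.89 ± 0.14) fell, and DCN (edgeR adjusted p = 0.285) and PDGFRB (edgeR adjusted p = 0.323) did not pass. The part of these markers in the results was not tested.

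ADAMTS15 had 89.8, 86.4 and 94.7 CPM in HCCC9810 anlotinib and 241, 180 and 151 CPM in HCCC9810 control, and fell by 1.08 ± 0.15 on the log2 scale (edgeR adjusted p = 0.000154). ADAMTS12 had 23.4, 24.2 and 21.6 CPM in HCCC9810 anlotinib and 46.8, 40.8 and 32.6 CPM in HCCC9810 control (-0.79 ± 0.15, edgeR adjusted p = 0.00218). ADAMTS1 had 20.6, 26.3 and 21.2 CPM in HCCC9810 anlotinib and 42.3, 32.6 and 30.0 CPM in HCCC9810 control (-0.62 ± 0.15, edgeR adjusted p = 0.00929). In all 3 the treated libraries lay below the control ones. ADAMTS14, a procollagen N-propeptidase at low level, had 0.566, 0.477 and 0.640 CPM in HCCC9810 anlotinib and 1.81, 1.27 and 2.37 CPM in HCCC9810 control, from 8 to 9 counts a library against 24 to 53. It also had separate ranges (-1.71 ± 0.36, edgeR adjusted p = 0.00375).

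MMP28 had 127, 77.0 and 118 CPM in HCCC9810 anlotinib and 173, 149 and 159 CPM in HCCC9810 control, with every treated library below the controls (-0.58 ± 0.15, edgeR adjusted p = 0.0137). MMP7 had 56.7, 29.4 and 61.5 CPM in HCCC9810 anlotinib and 91.0, 66.5 and 79.9 CPM in HCCC9810 control, also separate (-0.69 ± 0.21, edgeR adjusted p = 0.0347). MMP24 had 51.5, 49.5 and 62.1 CPM in HCCC9810 anlotinib and 111, 70.3 and 61.7 CPM in HCCC9810 control. Treated library 12 lay just above control library 9, so the ranges of MMP24 overlapped (-0.57 ± 0.19, edgeR adjusted p = 0.0459).

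MMP1, the interstitial collagenase (ENSG00000196611, chromosome 11, 102789920 to 102798160), was the member that rose. It had 19, 67 and 32 counts in HCCC9810 anlotinib and 2, 12 and 5 counts in HCCC9810 control, or 1.34, 4.0 and 2.28 CPM against 0.134, 0.637 and 0.224 CPM. Every treated library was above the controls, and the log2 fold change was 2.91 ± 0.60 (edgeR adjusted p = 0.00342). In RBE, MMP1 had 4, 7 and 1 counts with anlotinib and 0, 4 and 0 in control cells, too few to tell a change (1.17 ± 1.26, edgeR adjusted p = 0.555). At its highest, in HCCC9810 anlotinib, MMP1 averaged 1.19 ± 0.658 RPKM. Of the exon length of MMP1, 7.61% is shared with WTAPP1.

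The inhibitors did not pass in HCCC9810. TIMP2 had 2026, 1473 and 1898 CPM in HCCC9810 anlotinib and 2066, 1916 and 1949 CPM in HCCC9810 control (-0.14 ± 0.13, edgeR adjusted p = 0.449). TIMP4 had 27.2, 23.9 and 29.7 CPM in HCCC9810 anlotinib and 30.0, 29.4 and 29.9 CPM in HCCC9810 control (-0.14 ± 0.12, edgeR adjusted p = 0.377). In both genes the highest treated library lay within the control range. TIMP1 had 152, 130 and 166 CPM in HCCC9810 anlotinib and 140, 106 and 113 CPM in HCCC9810 control (0.31 ± 0.14, edgeR adjusted p = 0.125), and TIMP3 had 1.13, 0.955 and 0.356 CPM in HCCC9810 anlotinib and 1.41, 1.33 and 1.70 CPM in HCCC9810 control (-0.85 ± 0.34, edgeR adjusted p = 0.0796). TIMP1 overlapped through control library 7, without which it passed (0.46, edgeR adjusted p = 0.0372), and TIMP3 did not overlap.

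The calls of ADAMTS15, ADAMTS12, ADAMTS14 and MMP1 held under all 22 alternative settings, and MMP28 under all but log2(RPKM + 0.1). MMP1 entered the test through its treated HCCC9810 libraries and ADAMTS14 through its HCCC9810 control libraries, where each was high. Their directions are therefore tied to the count filter, although the settings include a fit without it. MMP24 lost its call without any 1 of 11 libraries, HCCC9810 control 9 being the exception, and its log2 fold change was -0.25 (edgeR adjusted p = 0.245) without HCCC9810 control library 7. It also lost it with the ratio method (adjusted p = 0.0657), in the 6 HCCC9810 libraries alone (0.0673), on log2(RPKM + 0.1) (0.148) and without libraries 6 and 7 (-0.27, 0.149). MMP7 lost its call without HCCC9810 anlotinib 11, HCCC9810 control 7 or HCCC9810 control 9, and after correction for GC content and gene length (-0.49, adjusted p = 0.218). MMP7 further lost it in the 6 HCCC9810 libraries alone (0.0655), on log2(RPKM + 0.1) (0.117) and without libraries 6 and 7 (0.113). ADAMTS1 lost its call without HCCC9810 anlotinib 10 (adjusted p = 0.0546) or 12 (0.0513). Across all genes, the HCCC9810 log2 fold changes followed GC content with a rho of 0.296 before and 0.0115 after that correction.

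**Figure D3:**
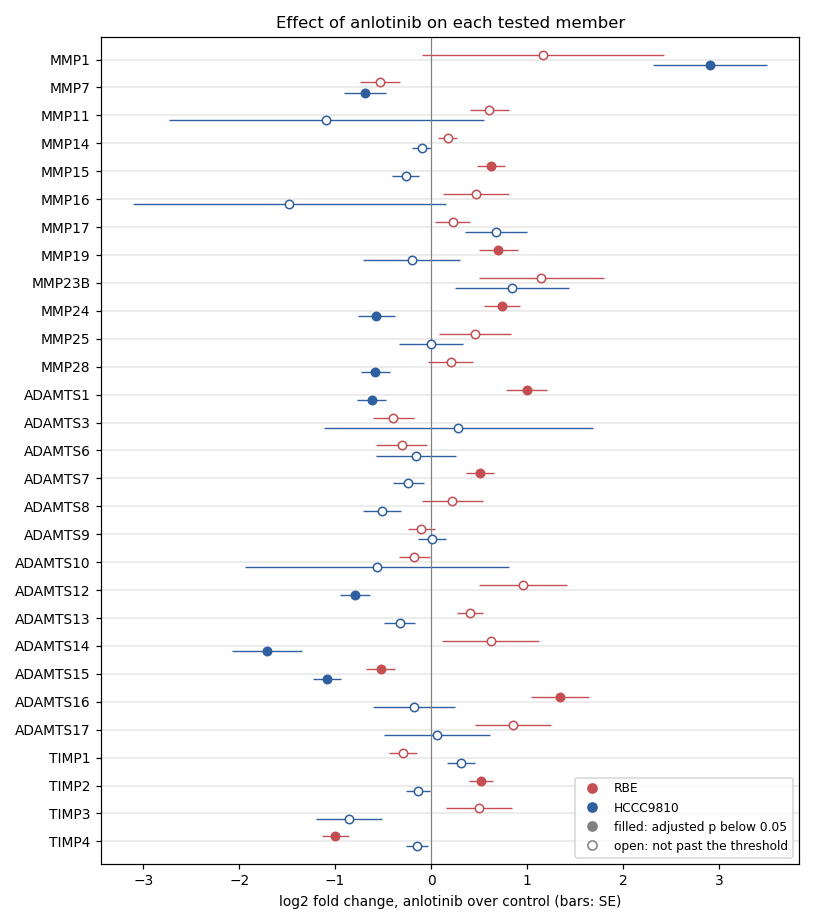
Log2 fold change of each of the 29 tested members with anlotinib over control, in RBE (red, upper point) and HCCC9810 (blue, lower point), bars are SE and filled points passed the test. Filled red points lie right of 0 for 7 members and left for TIMP4 and ADAMTS15; filled blue points lie left of 0 for 7 members and right for MMP1.

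The difference between the lines was tested directly, as the RBE effect minus the HCCC9810 effect. It passed for 9 of 29 members, 8 with a higher effect in RBE and 1 with a lower one, beside 16.6% of all genes, 8.92% higher and 7.66% lower, with a median of 0.73 for the members and 0.09 for all genes. Under the other scalings the median of all genes was 0.22 with library totals, 0.06 with the ratio method and -0.02 after the GC and length correction, and the members' values are to be read relative to it. The difference uses the same libraries as both effects. Across all genes it followed GC content with a rho of -0.258 before and -0.0175 after the GC and length correction.

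ADAMTS1 had a difference of 1.62 ± 0.26 (edgeR adjusted p = 0.00116), rising in RBE and falling in HCCC9810, both past the threshold. MMP24 had a difference of 1.31 ± 0.27 (edgeR adjusted p = 0.00643), and MMP15 of 0.89 ± 0.20 (edgeR adjusted p = 0.00922). In HCCC9810, MMP15 had 86.3, 66.9 and 78.4 CPM with anlotinib and 101, 91.0 and 85.6 CPM in control cells, which overlapped (-0.26 ± 0.14, edgeR adjusted p = 0.187). TIMP4 was the member with a lower effect in RBE, at -0.86 ± 0.18 (edgeR adjusted p = 0.00642). These 4 differences passed under all 21 alternative settings run.

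ADAMTS14 (2.33 ± 0.62), ADAMTS12 (1.75 ± 0.48), TIMP2 (0.65 ± 0.18), ADAMTS13 (0.73 ± 0.21) and ADAMTS7 (0.74 ± 0.22) passed with edgeR adjusted p of 0.0201 to 0.0321. ADAMTS14 entered the test through its HCCC9810 control libraries, where it was high, so the sign of its difference is tied to the count filter. In RBE, ADAMTS12 had 11, 9 and 4 counts with anlotinib and 2, 2 and 6 in control cells, and ADAMTS14 had 10, 11 and 5 with anlotinib and 4, 1 and 9 in control cells, so their RBE effects are the less precise side. ADAMTS13, the protease that cuts von Willebrand factor, had 12.2, 14.1 and 13.0 CPM in RBE anlotinib and 10.3, 9.38 and 10.0 CPM in RBE control, and 4.25, 4.18 and 4.91 CPM in HCCC9810 anlotinib and 6.11, 4.56 and 6.04 CPM in HCCC9810 control. Neither effect of ADAMTS13 passed alone (0.40 ± 0.14, adjusted p = 0.0563 in RBE, and -0.33 ± 0.16, adjusted p = 0.146 in HCCC9810, edgeR). TIMP1 fell short of the threshold at -0.61 ± 0.21 (edgeR adjusted p = 0.0547) and passed without RBE anlotinib library 6 (-0.79, edgeR adjusted p = 0.00734). The differences of these 5 genes each lost their call in 2 to 9 of the 12 fits without 1 library. Without RBE anlotinib library 4 or RBE control library 1 the count of 9 became 4.

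**Figure D4:**
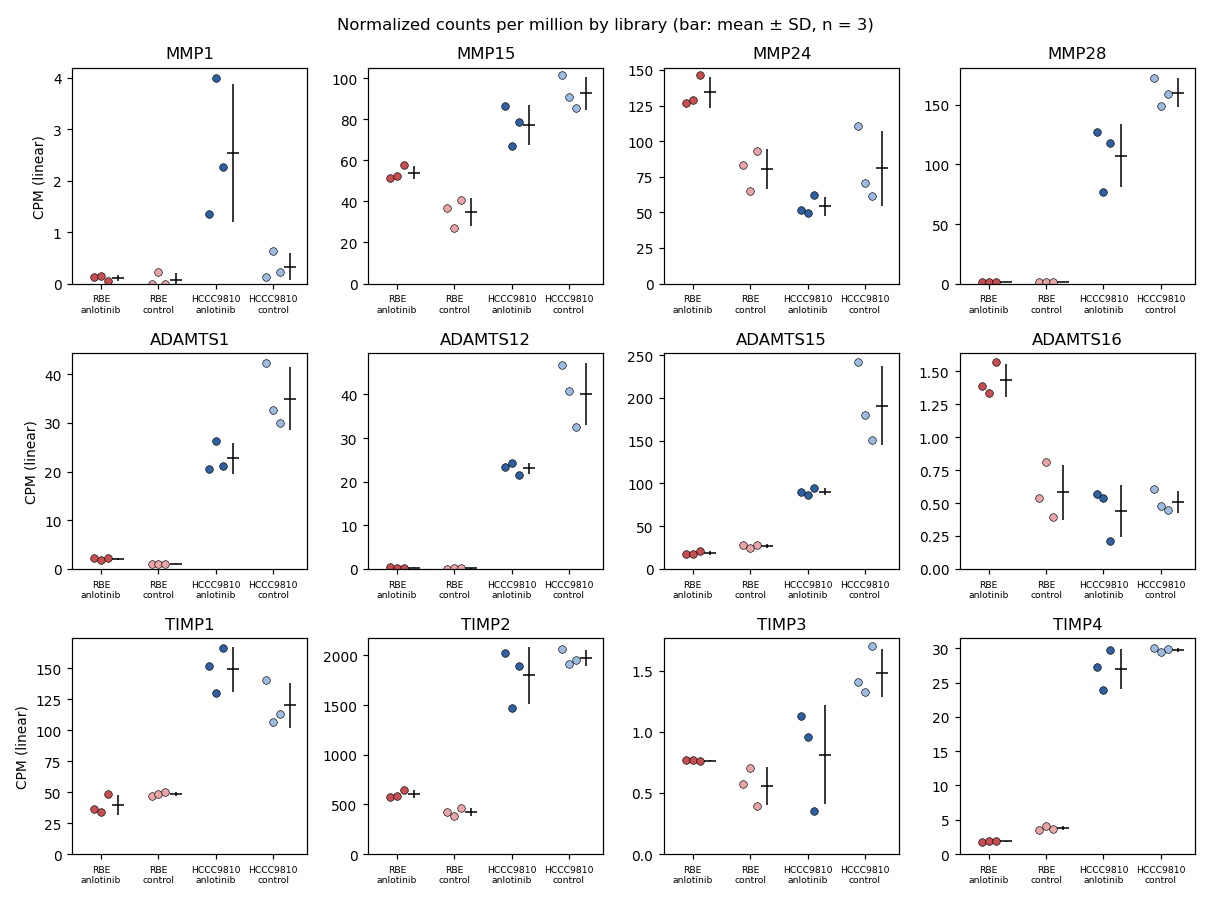
CPM (linear axes from 0) of 12 members in each library (points) with the group mean and SD (black, n = 3), for RBE anlotinib, RBE control, HCCC9810 anlotinib and HCCC9810 control from left to right. MMP1 is raised in the treated HCCC9810 libraries (1.34 to 4.0 against 0.134 to 0.637 CPM), ADAMTS1 is higher with anlotinib in RBE and lower in HCCC9810, and TIMP4 is lower with anlotinib in RBE.

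The genes around these proteases were counted from lists of their activators, other inhibitors, partners, substrates and the AP-1 and ETS factors known to act on MMP promoters. All list counts are to be read beside the shares of all genes, 9.37% up and 8.32% down in RBE and 11.1% up and 12.8% down in HCCC9810, and no list was tested against other genes. Of 11 activators tested (proprotein convertases, the plasmin system, kallikreins and other serine proteases), 1 fell in RBE (9.09%) and 5 fell in HCCC9810 (45.5%), and the others did not pass. PLAT, the tissue plasminogen activator, fell by 0.95 ± 0.12 on the log2 scale in HCCC9810 (edgeR adjusted p = 7.86e-05), as did PCSK5 (-0.87 ± 0.12), KLK10 (-1.08 ± 0.16) and KLK6 (-0.68 ± 0.16). FURIN, which removes the propeptide of membrane-type MMPs, MMP11 and ADAMTS proteases, fell in RBE by 0.44 ± 0.14 with overlapping ranges (edgeR adjusted p = 0.0408) and in HCCC9810 by 0.41 ± 0.14 with separate ones (edgeR adjusted p = 0.0466). The list's median was -0.20 in RBE and -0.18 in HCCC9810.

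Of 12 inhibitors and uptake receptors outside the TIMPs, 2 rose (16.7%) and 1 fell (8.33%) in RBE (median 0.29), and 6 fell (50%, beside 12.8% of all genes) in HCCC9810 (median -0.51). In HCCC9810 TFPI2, a Kunitz-type inhibitor of plasmin and other serine proteases, fell by 1.5 ± 0.15 (edgeR adjusted p = 1.14e-05), SPOCK1 by 0.98 ± 0.11, RECK, a membrane-anchored inhibitor of MMPs, by 0.59 ± 0.12 and LRP1B by 1.02 ± 0.27. In RBE the proteoglycan SPOCK2 rose (1.29 ± 0.27), the receptor LRP1B rose with overlapping ranges (1.09 ± 0.31) and SPOCK1 fell by 1.86 ± 0.11 (edgeR adjusted p = 7.54e-08). The difference of the effects passed for 6 of these 12 genes, 5 with a higher effect in RBE and 1 with a lower one, beside 16.6% of all genes.

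Among 10 inducer and cell surface partners, 2 rose in RBE (20%, beside 9.37% of all genes), and 1 rose (10%, beside 11.1%) and 2 fell (20%, beside 12.8%) in HCCC9810. Syndecan SDC4 rose in RBE (0.60 ± 0.11) and in HCCC9810 (0.53 ± 0.11), CLDN1 rose in RBE (0.55 ± 0.10), and the integrins ITGAV (-0.98 ± 0.24) and ITGB3 (-0.56 ± 0.16) fell in HCCC9810. Of 4 ADAMTS-like genes, which lack the protease domain, ADAMTSL4 rose in RBE (0.82 ± 0.19). In HCCC9810 0 of the 4 passed in edgeR or DESeq2, with 1 lower at an unadjusted p below 0.05 in edgeR. Of 10 membrane ADAM proteases, 1 rose in RBE (10%, beside 9.37%) and 4 fell in HCCC9810 (40%, beside 12.8%). ADAM19 rose in RBE (0.43 ± 0.13) and fell in HCCC9810 by 0.80 ± 0.11, and ADAM28, ADAM22 and ADAM10 fell in HCCC9810.

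Among 12 proteoglycan and glycoprotein substrates, 1 rose and 1 fell in RBE (8.33% each, beside 9.37% and 8.32% of all genes), and 4 fell in HCCC9810 (33.3%, beside 12.8%). VWF, the substrate of ADAMTS13 and also an endothelial marker, rose in RBE by 3.44 ± 0.31 on the log2 scale (edgeR adjusted p = 3.85e-06), and the matrix protein TNC fell by 0.99 ± 0.13. The 3 endothelial markers summed to 7.88 to 8.51 CPM in RBE anlotinib and 3.91 to 5.23 CPM in RBE control, and to 30.6 to 36.1 CPM in HCCC9810 anlotinib and 29.3 to 35.1 CPM in HCCC9810 control. In HCCC9810 THBS1 (-0.96 ± 0.17), BGN (-1.30 ± 0.31), VCAN, the versican cut by ADAMTS1 and ADAMTS15 (-0.96 ± 0.27), and TNC (-0.72 ± 0.23) fell. Of 11 collagens, 3 fell in RBE (27.3%, beside 8.32%) and 5 fell in HCCC9810 (45.5%, beside 12.8%). COL5A1 fell by 1.21 ± 0.14 in RBE and by 1.22 ± 0.14 in HCCC9810, where COL4A1 (-1.34 ± 0.13) and COL1A1 (-0.89 ± 0.14), also 1 of the fibroblast markers, were among the others.

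Of 8 AP-1 subunits, 5 rose in RBE (62.5%, beside 9.37% of all genes, median 0.81), and 6 rose in HCCC9810 (75%, beside 11.1%, median 1.16). ATF3 rose by 2.39 ± 0.20 in RBE and 2.23 ± 0.20 in HCCC9810, FOSB by 1.58 ± 0.23 and 2.81 ± 0.22, and FOS by 1.12 ± 0.18 and 1.60 ± 0.17, in that order of lines. The tested members with TGANTCA in their windows, MMP7 and ADAMTS12, did not pass in RBE (-0.53 ± 0.21, adjusted p = 0.105, and 0.96 ± 0.46, adjusted p = 0.188, edgeR). In HCCC9810 they fell, by 0.69 and 0.79 on the log2 scale. Only 17 of the 29 tested members had a window. MMP1, the member that rose in HCCC9810, had none, so its promoter was not searched for these letters. MMP28, ADAMTS1, ADAMTS15 and TIMP2 were among the others without a window. Of 9 ETS factors, 1 rose (11.1%) and 4 fell (44.4%) in RBE, beside 9.37% and 8.32% of all genes, and 3 rose (33.3%) and 2 fell (22.2%) in HCCC9810, beside 11.1% and 12.8%. ETV5 fell in RBE (-0.54 ± 0.10) and rose in HCCC9810 (0.79 ± 0.10), ETV4 rose in HCCC9810 (1.11 ± 0.14), and SPDEF and EHF fell in both lines, SPDEF by 1.95 ± 0.20 in RBE and by 1.26 ± 0.21 in HCCC9810.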

How the data were processed

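RNA sequencing counts for 58216 Ensembl genes in 12 libraries were analysed. The authors deposited whole-number read counts per gene, with no scaling, and RPKM values, which equalled the deposited count divided by a fixed gene length and the column total (100% of values within 0.1%). HISAT2 and GRCh38 are named in the submitters' processing notes, without versions. How reads were assigned to genes, and with which strand setting, is not given in the sources used here. Per the labels, libraries were paired-end and made from total RNA, and the replicates are described as biological.

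Group membership followed the words in the column headers, which give line and treatment. The sample titles carry the same library numbers with the opposite treatment, so no library was tied to a single sample. Coordinates, GC content and exon overlap came from GENCODE 29 (GRCh38), in which all 58216 identifiers were found. Promoter windows came from RefSeq (GRCh38.p14).

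Counts of all 12 libraries were fitted with 4 group means in edgeR 4.0.16 (R 4.3.3): filterByExpr, TMM scaling and the robust quasi-likelihood test, two-sided, with Benjamini-Hochberg adjustment over 18035 genes and a call at an adjusted p below 0.05. CPM are normalised counts scaled to the TMM-adjusted library size. Log2 fold changes carry edgeR's small prior count, which pulls low genes towards 0, and SE is the size of the unshrunk log2 fold change over the root of F. Alternatives were library totals, the ratio method, DESeq2 1.42.0, no or a stricter filter (1 CPM in 3 libraries), the 6 libraries concerned, limma 3.58.1 on log2(RPKM + 1) for genes with a mean of at least 0.1 RPKM and on log2(RPKM + 0.1), offsets for GC content and length, each library left out, and libraries 6 and 7 left out together. The procedure was run on simulated counts, drawn independently for each library without the GC axis and with changes only in well-counted genes. That run does not cover the low-count members or the GC axis, and its outcome is not given here.

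The members and gene lists were chosen with earlier results of these data known. Values per library are given for the members called in an anlotinib effect or in the difference of the effects and for the 4 TIMP genes; in the control comparison up to 8 members per direction, and from each other list up to 4 per direction, were named by smallest p. MMP2 counts and MMP7, MMP11 and MMP14 in RBE were added after their values were seen. MMP23B, with a near-identical pseudogene copy, and MMP25, with 35.24% of its exon length shared with MMP25-AS1, are uncertain. Both enter the counts and figures, and MMP25 is also named among the members lower in RBE control. A marker gene and a gene of the inhibitor list are not reported here, and the marker sum and list counts leave them out.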

Additional observations from a re-analysis of the deposited data

Results flagged for a closer look

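Every item here was picked out because the anlotinib effects in the 2 lines differed by the test of the difference itself (RBE effect minus HCCC9810 effect, log2, edgeR). With a positive sign these were ADAMTS1 at 1.62, MMP24 at 1.31, MMP15 at 0.89, ADAMTS14 at 2.33, ADAMTS12 at 1.75, TIMP2 at 0.65, ADAMTS13 at 0.73 and ADAMTS7 at 0.74. TIMP4 had a negative one, at -0.86. ADAMTS1 and MMP24 passed in opposite directions in the lines, the MMP24 call in HCCC9810 depending on single libraries. MMP15, TIMP2, TIMP4 and ADAMTS7 passed in RBE, ADAMTS12 and ADAMTS14 in HCCC9810, and ADAMTS13 in neither line alone. The sign of the ADAMTS14 difference is tied to the count filter, which this gene passed through its HCCC9810 control libraries. If the titles' numbers rather than the headers' words gave the treatment, all 9 signs would reverse. Groups of 3 libraries were not tested for outliers.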

How the results depend on the processing

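Among the member results rerun, those called in a comparison and named by rule and the TIMP genes, none changed sign. Over these, 994 kept direction and side of the threshold, 81 fell short of it and 13 newly passed it. Effects printed for other members (such as MMP24 between controls and MMP7, MMP11 and MMP14 in RBE) were not rerun. The count of members called in HCCC9810 with anlotinib was 8, with 6 to 11 under the other settings and 6 to 8 without 1 library. In RBE it was 9, with 5 on log2(RPKM + 0.1) without a filter, up to 12 elsewhere, and 4 to 10 without 1 library. For the difference of the effects it was 9, with 14 on log2(RPKM + 1), 15 after the GC and length correction, and 4 to 10 without 1 library; a fit on 6 libraries has no value for it. Between control cells it was 25, with 23 to 26 and 24 to 26. Without libraries 6 and 7 together the counts were 7, 9, 9 and 26 in the same order.

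Calls of the difference were lost for ADAMTS12 without RBE anlotinib 4 (1.46, adjusted p = 0.112) or RBE control 1 (1.44, 0.0844), for ADAMTS14 without these or HCCC9810 control 9 (adjusted p of 0.0555 to 0.0624), for TIMP2 without RBE anlotinib 4 or 5, RBE control 1 or 2, or HCCC9810 control 8 or 9 (0.0514 to 0.0725), for ADAMTS7 without RBE anlotinib 4 or 5, any RBE control, HCCC9810 anlotinib 11 or HCCC9810 control 8, and for ADAMTS13 in 9 of the 12 fits that left out 1 library. With no low-count filter the differences of ADAMTS7 and ADAMTS13 also fell short (edgeR adjusted p = 0.068 and 0.0902). That of ADAMTS7 further fell short on log2(RPKM + 0.1) (limma adjusted p = 0.0522) and without libraries 6 and 7 (edgeR adjusted p = 0.0541). TIMP1 newly passed in the difference under 7 settings. The cause was not tested. Over all genes, calls numbered 2225 to 6359 in HCCC9810, 1826 to 4819 in RBE and 1193 to 6413 for the difference across the settings other than leaving out 1 library; the lowest counts came from log2(RPKM + 0.1). In edgeR's main fit they were 4303, 3189 and 2990. Members with few counts, such as MMP11, MMP16, ADAMTS3, ADAMTS10 and ADAMTS12 in 1 line and MMP1, ADAMTS14 and ADAMTS17 in both, have imprecise effects there. No paired analysis was possible because treated and control libraries share no replicate numbers.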
